A study of Mus musculus with 6 samples.

Results

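The AP-1 transcription factors described here are 10 genes of the basic leucine zipper class: Fos, Fosb, Fosl1, Fosl2, Jun, Junb, Jund, Atf3, Batf and Maff. They were taken by name from a table of 17761 genes, and each name was found on a single row. The expression data are RNA-seq of 3 mouse samples labelled Model and 3 labelled Control, with thrombus given as the tissue of all 6. In the Model the inferior vena cava, the large vein of the lower body, was closed by ligation, and vein and thrombus were collected together 24 h later. The sources used here give neither strain, age nor sex, nor what was done to the Control animals, so that ligation, surgery and thrombus cannot be told apart in this comparison. The labels leave it unsaid whether each sample is its own animal. The p-values therefore rest on sample-to-sample spread that may be technical.

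AP-1 is a dimer. A Jun protein pairs with itself or with a Fos, Atf or Batf protein through the leucine zipper, and the pair of basic regions grips a short DNA element in the control regions of target genes. Fos, Fosb, Jun and Junb are classical immediate early genes, switched on within minutes of growth factors, cytokines, stretch or injury by the MAP kinases and serum response factor, and their transcripts are short-lived. Fosl1 (Fra-1) and Fosl2 (Fra-2) lack the strong activation domain of Fos and tend to appear later, in part because AP-1 itself acts on their genes. Batf has only a zipper and a basic region and works in lymphocytes with IRF4 and IRF8, and Maff is a small Maf protein that binds DNA as a partner of CNC factors such as NFE2. In the vessel wall and in blood cells AP-1 is known for driving cytokines, matrix-degrading enzymes and wound genes.

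The stretches just before the transcript start are shown for Jun, Fos and Junb, whose fast induction by signals is a textbook case. RefSeq promoter windows on GRCm38.p6, reaching from 250 bases before to 50 bases after a start, were matched for 9 of the 10 genes, in 11 windows, with none for Fosl1. The lines below give the 150 bases before the start on the sense strand, 5′ to 3′. Capitals mark, on both strands, TGACATCA (the variant AP-1 element), TGACG (the core of the cAMP response element), GGGCGG (the GC box) and TATAA (the TATA box).
Jun, chr4:95052223-95052372, minus strand: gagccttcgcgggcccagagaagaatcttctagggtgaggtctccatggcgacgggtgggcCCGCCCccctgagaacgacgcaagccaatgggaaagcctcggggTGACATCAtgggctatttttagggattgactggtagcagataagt
Fos, chr12:85473740-85473889, plus strand: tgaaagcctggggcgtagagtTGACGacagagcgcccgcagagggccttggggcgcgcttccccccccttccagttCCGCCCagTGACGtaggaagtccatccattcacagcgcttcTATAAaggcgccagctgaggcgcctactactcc
Junb, chr8:84978749-84978898, minus strand: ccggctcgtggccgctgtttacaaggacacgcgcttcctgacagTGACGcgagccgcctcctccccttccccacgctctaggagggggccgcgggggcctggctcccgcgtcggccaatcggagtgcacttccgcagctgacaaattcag

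Counted back from -1, the base before the start, the variant element of Jun lay at -45 to -38 and the TGACG letters of Fos at -129 to -125 and -66 to -62. Junb held TGACG at -106 to -102. TGACG, read on both strands, was in 7 of the 11 windows, which belong to Atf3, Batf, Fos, Fosb, Junb and Maff, against 20.8% of all 32851 promoter windows. The full cAMP response element TGACGTCA, which contains TGACG, was in 1 of 11 windows, of Maff, against 1.79% of all. TGACATCA was in 2 windows, of Jun and Maff, against 3.62% of all, and GGGCGG in 8 against 35.7%. TATAA was in 2 of the 11, against 24.9% of all. It lay at -33 to -29 in Fos, and in Junb at bases 1 to 5 of the transcript, past the start. Neither TGACTCA, the TPA response element to which AP-1 was first found to bind, nor the CArG box of serum response factor was in any of the 11 windows, against 5.2% and 1.63% of all windows. TGACATCA and TGACG were chosen after the windows were seen. These are matches of letters in short windows and carry no measurement of binding. Bases farther upstream than the windows reach were not searched. Absence of TGACTCA or the CArG box from a window therefore does not show that the gene lacks the element.

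The libraries held 25336173 to 28193281 counts in Model and 31924426 to 38118463 in Control. Levels below are CPM, a gene's counts relative to the TMM-scaled library total, and a count of 0 allows up to 3 counts, or 0.073 to 0.121 CPM. Summed markers of neutrophils, platelets, red cells and T cells were far apart between the groups, while those of monocytes and macrophages overlapped. By edgeR, 9 of 10 tested neutrophil, 9 of 10 platelet and 5 of 6 erythroid markers were higher in Model. In the same test 6 of 8 T cell markers were lower and 1 of 8 monocyte and macrophage markers was higher. Over all tested genes, 2.71% were called higher and 1.36% lower. Of the neutrophil markers, Ly6g and Camp were too low to test. The 12 neutrophil markers summed to 3534 to 7113 CPM in Model and 44.6 to 137 CPM in Control, the 10 platelet markers to 761 to 1962 and 151 to 285 CPM, and the 7 erythroid markers to 4894 to 28680 and 322.5 to 446 CPM. T cell markers were at 149 to 252 CPM in Model and 496 to 1329 CPM in Control, and smooth muscle markers at 1091 to 2646 and 2923 to 4544 CPM. Endothelial markers lay at 1805 to 2695 CPM in Model and 1825 to 2155 CPM in Control, so that vessel wall transcripts were present in all 6 samples labelled thrombus, and the Control samples held few of the neutrophil, platelet and red cell transcripts of a clot. In such bulk tissue, more cells of a type and more RNA per cell cannot be told apart. Control 1 correlated less with the other Controls (0.815 and 0.825, log2 CPM across genes) than these did with each other (0.904), and Model 2 held the most liver marker transcripts, 6190 CPM against 759 to 1378 CPM in Model 1 and Model 3 and 1370 to 2294 CPM in Control.

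Among the AP-1 genes, the late Fos relatives Fosl1 and Fosl2 rose in ligated vein with thrombus, while Fos itself and the Jun genes did not pass the test. Fosl1 was scarcely detected in Control. Of the 10 genes, all of which passed the filter on low counts, 2 were higher and none lower in Model in edgeR's quasi-likelihood test (adjusted after Benjamini and Hochberg over 13907 genes), where 2.71% of all tested genes were called higher and 1.36% lower. DESeq2 also called 2 higher and none lower. An unadjusted p under 0.05 was found for 5 of the 10, against 15.8% of all tested genes, and these were Fosl1, Fosl2, Jun, Junb and Maff, each higher in Model. The Model and Control libraries did not overlap for 4 genes, Fosl1, Fosl2, Junb and Maff, each higher in Model, a pattern of 12.1% of all tested genes. No AP-1 gene had all Model libraries below all Controls, as 11.4% of all genes had. The median log2 fold change of the 10 was 0.53, against -0.0067 over all tested genes. The neutrophil, platelet, erythroid and T cell marker sums given above divide the libraries in the same way, and their part in these results was not tested.

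**Figure D1:**
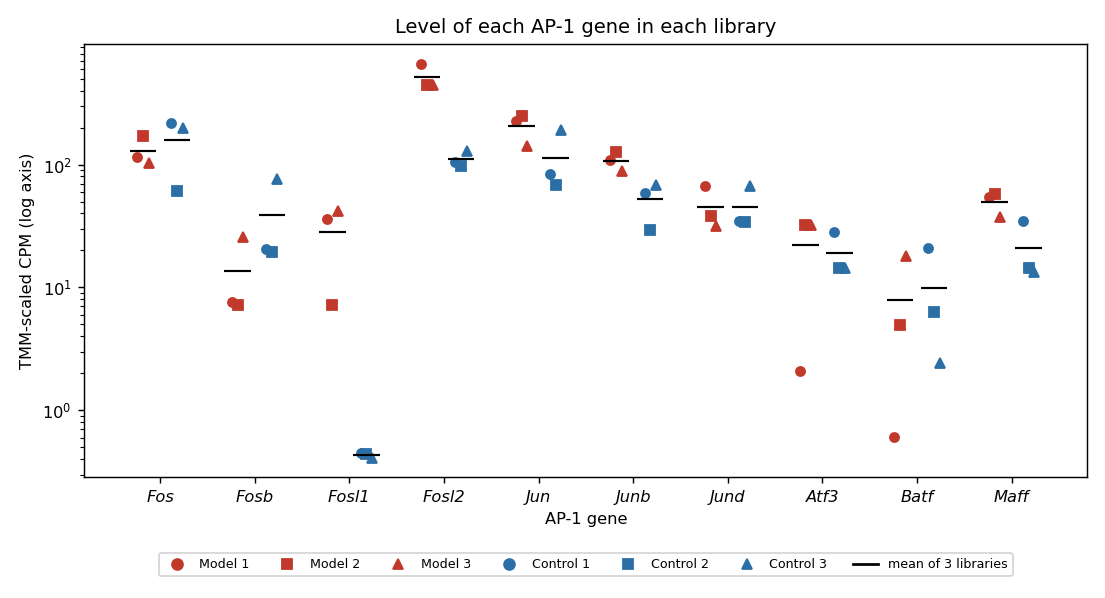
CPM of each AP-1 gene in each library on a log axis, Model in red left of Control in blue, with a black line at the mean of 3 libraries. Fosl1 lies at 7.14 to 41.6 CPM in Model and near 0.43 CPM in all 3 Controls, and Fosl2 at 441 CPM or more in Model and at most 129 CPM in Control.

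Fosl1 (ENSMUSG00000024912, chromosome 19, 5447547 to 5455946 of GRCm38) encodes Fra-1, a Fos relative tied to cell migration and wound repair. It had 35.9, 7.14 and 41.6 CPM in Model 1 to 3, from 889, 196 and 1055 counts, against 0.453, 0.438 and 0.412 CPM in Control 1 to 3, from 16, 18 and 14 counts. Every Model library stood far above every Control, and Model 2 was the lowest of the 3 by a wide margin. The means were 28.2 ± 18.5 CPM in Model and 0.434 ± 0.0206 CPM in Control (SD, n = 3 each). The log2 fold change was 6.01 (SE 1.003, 95% interval 3.83 to 8.18, edgeR adjusted p = 0.00482). Its call held when any 1 library was left out, with adjusted p from 0.00192 to 0.0377, and was lost with limma-voom (log2 fold change 5.56, adjusted p = 0.15). Of the exon bases of Fosl1, 57.2% also belong to exons of Ccdc85b on the opposite strand. Ccdc85b had 3, 78 and 190 counts in Model and 20, 376 and 246 in Control. With the strand setting unknown, reads of such a pair cannot be told apart, and the exact level of Fosl1 is uncertain.

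Fosl2 (ENSMUSG00000029135, chromosome 5, 32135801 to 32157842) encodes Fra-2, the Fos relative with the highest count in every Model library. It stood at 661.5, 444 and 441 CPM in Model 1 to 3 and at 106, 97.8 and 129 CPM in Control 1 to 3. The groups were well apart, with Model 1 the highest library. The mean was 516 ± 126 CPM in Model and 111 ± 16.1 CPM in Control, and Fosl2 rose by 2.22 on the log2 scale (SE 0.26, edgeR adjusted p = 4.5e-04). It was called in each of 15 other settings of the processing, with log2 fold changes from 1.99 to 2.34.

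Fos (ENSMUSG00000021250, chromosome 12, 85473890 to 85477273), the founding early gene of the family, did not pass the test. It had 115, 169 and 102 CPM in Model and 218, 61.2 and 197 CPM in Control, with Control 2 the lowest and Control 1 and Control 3 the highest of all 6 libraries. The log2 fold change was -0.30 with a 95% interval of -1.17 to 0.57 (edgeR adjusted p = 0.802). Fosb (ENSMUSG00000003545, chromosome 7, 19302696 to 19310051), another early gene of the family, had 7.68, 7.21 and 25.9 CPM in Model and 20.6, 19.3 and 76.1 CPM in Control. The third library was the highest of its group on both sides, and Model 3 overlapped the Controls. Its log2 fold change was -1.51 (95% interval -3.06 to 0.050, edgeR adjusted p = 0.334).

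None of the 3 Jun genes passed the test. Jun (ENSMUSG00000052684, chromosome 4, 95049034 to 95052222), the main partner of Fos, had 224, 246 and 143 CPM in Model and 84.1, 68.5 and 189.5 CPM in Control. Control 3 lay within the range of the Model libraries and the other Controls lay below it. The log2 fold change was 0.84 (SE 0.37, 95% interval 0.041 to 1.64, edgeR adjusted p = 0.289), and without Control 3 it was 1.42 with an adjusted p of 0.0381, so that this 1 library decided the call. Junb (ENSMUSG00000052837, chromosome 8, 84974484 to 84978718), a partner that often restrains Jun, had 109, 126 and 88.3 CPM in Model and 58.6, 29.4 and 68.2 CPM in Control. The groups did not overlap, yet the log2 fold change of 1.05 (SE 0.36, 95% interval 0.28 to 1.82) had an adjusted p of 0.147 by edgeR. Jund (ENSMUSG00000071076, chromosome 8, 70698949 to 70700616), the member with steady expression in most cells, had 66.5, 38.3 and 31.6 CPM in Model and 34.7, 34.0 and 67.3 CPM in Control. The groups covered the same range, with a log2 fold change of 0.0040 (95% interval -0.96 to 0.97, edgeR adjusted p = 0.999) whose sign turned in 7 of 15 other settings.

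Antisense neighbours also touch the Jun genes. Of the exon bases of Jund, 52.6% lie opposite exons of Gm11175, which had at most 2 counts in any library. For Junb 7.52% lie opposite exons of Prdx2, a peroxiredoxin gene at 92.2, 48.4 and 60.2 CPM in Model and 57.6, 68.7 and 58.8 CPM in Control. For Jun 7.28% lie opposite the antisense gene Junos, which was not analysed here. The limit given for Fosl1 holds for these pairs too.

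None of the more distant relatives passed the test, and Atf3 and Batf varied widely within both groups. Maff (ENSMUSG00000042622, chromosome 15, 79346621 to 79359076) had 54.7, 57.1 and 37.3 CPM in Model and 34.8, 14.5 and 13.2 CPM in Control. The groups did not overlap, with Control 1 close to Model 3, and the log2 fold change was 1.25 (SE 0.49, 95% interval 0.18 to 2.32, edgeR adjusted p = 0.224). Atf3 (ENSMUSG00000026628, chromosome 1, 191170296 to 191218039), a stress-induced repressor, had 2.10, 32.3 and 32.2 CPM in Model and 28.3, 14.5 and 14.3 CPM in Control. Batf (ENSMUSG00000034266, chromosome 12, 85686669 to 85709087), the lymphocyte and myeloid member, had 0.606, 4.95 and 17.9 CPM in Model and 20.8, 6.26 and 2.44 CPM in Control. Both genes were lowest of all 6 libraries in Model 1, and both were highest among the Controls in Control 1. Their log2 fold changes were 0.22 for Atf3 (95% interval -1.59 to 2.03, edgeR adjusted p = 0.947) and -0.33 for Batf (95% interval -3.03 to 2.37, edgeR adjusted p = 0.947), intervals too wide to tell a fall from a rise.

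**Figure D2:**
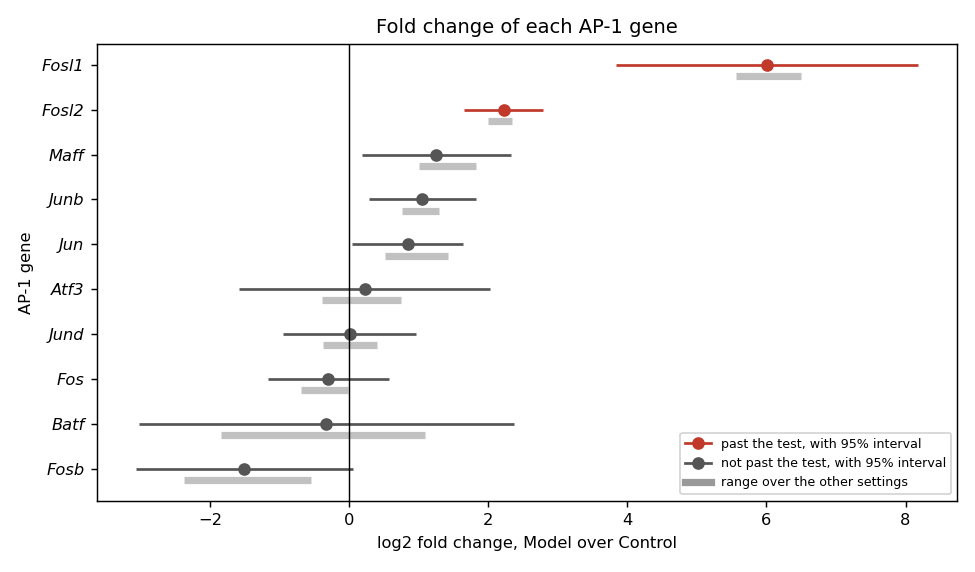
Log2 fold change of Model over Control for each AP-1 gene with its 95% interval, red where the gene passed the test, and in grey bars the range over 15 other settings. The intervals of Fosl1 and Fosl2 lie well above 0, those of Maff, Junb and Jun start between 0.041 and 0.28, and the other 5 include 0.

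Since the Fos proteins compete for the same Jun partners, the make-up of each family in RNA was also followed. Counts were divided by the length of a gene's merged exons and scaled as TPM, so that every library has the same total. Such shares of RNA do not show the shares of the proteins or of their pairs. The summed Fos family level was 518, 439 and 463 TPM in Model and 463, 193 and 493 TPM in Control, and the groups overlapped. Within that sum the shares of Fos, Fosl2 and Fosl1 did not overlap between the groups. Shares within a family depend on each other, so that larger shares of Fosl2 and Fosl1 leave a smaller share for Fos. The level of Fos itself overlapped between the groups. Fos made up 36.0%, 58.7% and 38.3% of the family in Model and 86.5%, 66.0% and 76.5% in Control. Fosl2 made up 50.1%, 37.5% and 40.1% in Model and 10.2%, 25.6% and 12.1% in Control. Fosl1 made up 12.96%, 2.87% and 17.99% in Model and at most 0.547% in any Control. Fosb averaged 1.83 ± 1.57% in Model and 7.34 ± 4.05% in Control (SD, n = 3 each), with overlap.

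Of the Jun family shares, that of Jund did not overlap between the groups. The family sum was 599, 555.5 and 416 TPM in Model and 314, 267 and 582 TPM in Control. Jund made up 25.3%, 14.8% and 18.6% of it in Model and 28.6%, 37.3% and 31.2% in Control, so that all Model libraries were below all Controls. The level of Jund itself overlapped between the groups. Jun averaged 46.1 ± 3.27% in Model and 40.5 ± 4.91% in Control, and Junb 34.3 ± 3.83% and 27.1 ± 6.89%, both with overlap between the groups. The shares were not tested, since 3 libraries against 3 cannot give an exact permutation p below 0.1. They depend on the overlaps given above for Fosl1 and Jund and on exon lengths from GENCODE. With counts not divided by length, Fos averaged 19.3% in Model and 48.8% in Control, and Fosl2 74.5% in Model and 39.1% in Control. On that scale Fosl2 was ahead of Fos in all 3 Model libraries and in Control 2, with 54.7% against 34.2%, so that which gene leads depends on the scale.

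**Figure D3:**
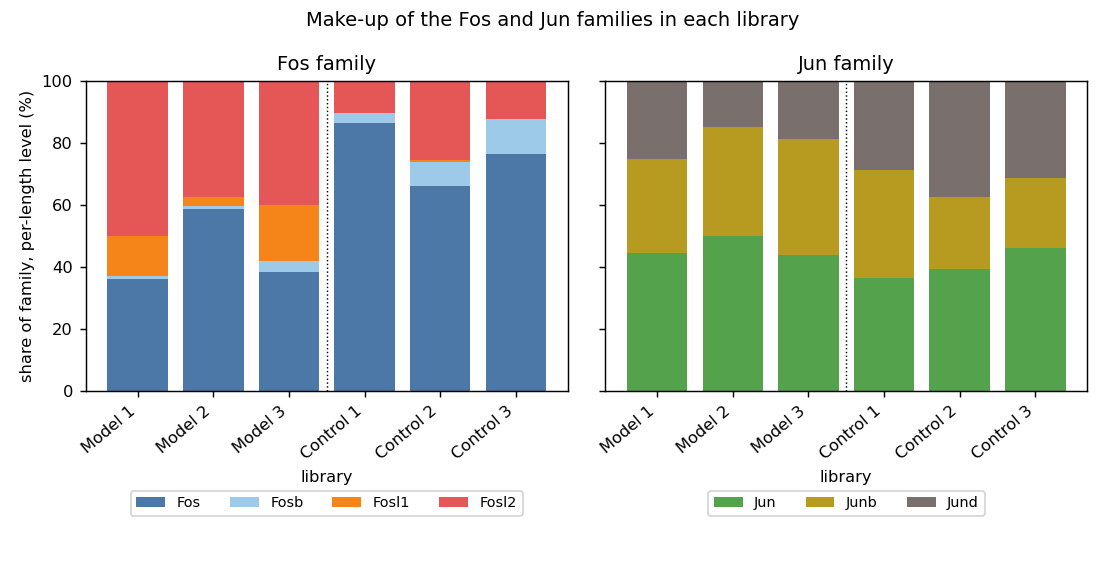
Stacked bars of each library's Fos family (left panel) and Jun family (right panel) as percent of the family's summed per-length level, Model libraries left of the dotted line and Controls right of it. Fos makes up 36.0 to 58.7% of its family in Model, against 66.0 to 86.5% in Control, while Fosl2 and Fosl1 take the larger part of the rest.

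In order of per-length level, the leading Model gene was Jun with 242 ± 52.0 TPM, ahead of Fos with 207 ± 44.3, Fosl2 with 203 ± 49.9 and Junb with 178 ± 20.1 TPM. These neighbours did not differ beyond their spread between libraries, though Jun was above Fos in each Model library. Jund (104 ± 41.4), Maff (72.5 ± 12.2), Fosl1 (54.3 ± 37.0), Atf3 (39.4 ± 31.1), Batf (22.1 ± 26.4) and Fosb (8.56 ± 7.21 TPM) came next. In Control, Fos led with 302 ± 152 TPM, then Jun with 162 ± 91.1, Jund with 124 ± 50.3 and Junb with 102 ± 36.1 TPM. Each of these did not differ beyond the spread between libraries from the next in the order. Within each Control library, though, Fos was above Jun and Jun above Jund. Fosl2 came behind these in Control with 52.1 ± 6.73 TPM, close to Atf3 (39.9 ± 14.7), Maff (36.1 ± 19.0) and Batf (31.2 ± 29.3 TPM). Fosl1 stood last there, with 0.976 ± 0.0728 TPM, below Fosb with 28.0 ± 23.2 TPM.

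The genes most like the called members over the 6 libraries were sought among 10431 others with a mean of at least 8 CPM, leaving out provisional names (Gm and Rik), by Pearson's r of log2 CPM. For Fosl1 they were Hp, the haptoglobin gene (r = 0.998), Lrrc32, a TGF-beta docking receptor of platelets and regulatory T cells (0.994), and Ly6a, the stem cell antigen Sca-1 (0.992). For Fosl2 they were Gp6, the collagen receptor of platelets (0.996), Zfp653, a zinc finger gene (0.996), and Adamts1, a matrix protease (0.995). With 6 libraries in 2 groups these values mostly restate the difference between the groups.

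Outside the family, Nfe2, a partner of small Maf proteins such as Maff, and Irf8, a partner of Batf, passed the test. Of 20 tested genes in a list of Maf, Batf, Atf and CNC factors and their cofactors, 1 was higher and 1 lower (10% called, against 4.07% of all tested genes), with a median log2 fold change of 0.17. By edgeR, 5 were higher and 2 lower at an unadjusted p under 0.05, against 15.8% of all tested genes in either direction. Nfe2, the CNC factor of platelets and red cell precursors that pairs with small Maf proteins, had 14.9, 29.3 and 12.1 CPM in Model and 0.283, 1.75 and 0.442 CPM in Control (log2 fold change 4.50, SE 1.15, edgeR adjusted p = 0.0481). Its call was lost without any 1 library, with adjusted p from 0.0506 to 0.238. It was also lost with upper-quartile scaling (0.0597), limma-voom (0.122) or a required log2 fold change of 1 (0.142). Platelet and erythroid markers, given above, were high in the same libraries, and their part in it was not tested. Irf8, the Batf partner of myeloid and B cells, was lower with 58.8, 87.3 and 78.1 CPM in Model and 416, 160 and 277 CPM in Control (log2 fold change -1.93, SE 0.34, edgeR adjusted p = 0.0061). The call of Irf8 ended without Model 1 (adjusted p = 0.0508), without Control 1 and Model 2 together (0.0509) and with a required log2 fold change of 1 (0.103), and summed B cell markers were at 264 to 488 CPM in Model and 836 to 1460 CPM in Control. Whether fewer B cells took part in this was not tested.

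The small Maf genes Mafg and Mafk, partners of Nfe2 like Maff, had log2 fold changes of 0.16 (edgeR adjusted p = 0.921) and 0.56 (0.456). Maf, a large Maf factor of macrophages, had -0.42 (0.62). Jdp2, a repressor that pairs with Jun, had 0.98 (SE 0.53, edgeR adjusted p = 0.412), from 31.2, 38.2 and 22.4 CPM in Model and 15.5, 14.8 and 16.3 CPM in Control. Atf2, a Jun partner activated by stress kinases, had 0.18 (0.813), Atf4 of the integrated stress response 0.42 (0.575), and Bach1, a haem-sensing CNC repressor, 0.57 (0.379). Batf2 was not tested, with 0.0404, 0 and 0.67 CPM in Model and 0.0566, 0.292 and 8.07 CPM in Control, and Batf3 was not analysed here.

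Upstream of AP-1, the activity of the kinases lies in phosphorylation, which RNA does not show. Of 31 tested genes of the MAP kinase cascades and the serum response factor complex, none passed edgeR's test, against 4.07% of all tested genes, so that the count is near the background. The median log2 fold change was 0.24. An unadjusted p under 0.05 was found for 3 with a higher and 4 with a lower level in Model, against 15.8% of all tested genes in either direction. DESeq2 called 1 of them higher, and the fit with no filter called 1 lower. Mapk8, which encodes the Jun kinase JNK1, had 0.26 (edgeR adjusted p = 0.801), and Mapk14, the stress kinase p38 alpha, -0.60 (0.298). Srf, serum response factor, had 9.78, 35.0 and 31.6 CPM in Model and 83.7, 42.6 and 69.7 CPM in Control, with no overlap and a log2 fold change of -1.36 (SE 0.50, edgeR adjusted p = 0.192).

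Some feedback genes that MAP kinase signals induce were higher. Of 16 tested, 3 rose and none fell (18.8% called, against 4.07% of all tested genes), with a median of 0.31. An unadjusted p under 0.05 was found for 5 higher and 0 lower, against 15.8% of all tested genes in either direction. Spry4, an inhibitor of Ras signalling, had 41.8, 54 and 76 CPM in Model and 3.51, 13.97 and 14.1 CPM in Control (log2 fold change 2.44, SE 0.58, edgeR adjusted p = 0.0333). Dusp1, the phosphatase that switches off p38 and JNK, had 509, 710 and 224 CPM in Model and 165, 79.3 and 195 CPM in Control (1.72, SE 0.41, edgeR adjusted p = 0.0365). Zfp36, tristetraprolin, which marks short-lived transcripts such as Fos for decay, had 245, 308 and 197 CPM in Model and 84.9, 67.5 and 109 CPM in Control (1.52, SE 0.27, edgeR adjusted p = 0.00748). For all 3, which were named for passing the test, the groups did not overlap, a pattern of 12.1% of all tested genes. Zfp36 stayed called with any 1 library left out (adjusted p at most 0.0341), though not with Control 1 and Model 2 both left out (0.0882). Dusp1 missed the threshold when Control 1, Control 2, Model 1 or Model 2 was left out (0.0867 to 0.12), as did Spry4 when Control 2 or any Model library was left out (0.0543 to 0.138) and with upper-quartile scaling (0.0529). The number that rose was 1 with Control 2, Model 1 or Model 2 left out, and 0 with Control 1 and Model 2 both left out. It was also 0 in edgeR with a required log2 fold change of 1, where adjusted p was 0.191 for Spry4, 0.399 for Dusp1 and 0.338 for Zfp36.

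Genes that textbooks give as AP-1 targets were often higher in Model. Of 22 tested, 9 rose and none fell (40.9% called, against 4.07% of all tested genes), with a median log2 fold change of 1.72. The list was chosen with earlier results of these data known, so this share describes the list. The genes that rose included Il6, Timp1, Cxcl2, Mmp9, Il1b, Ptgs2, Spp1 and Cd44. Cxcl2, a neutrophil chemokine, had 121, 116 and 83.1 CPM in Model and 1.16, 2.29 and 2.74 CPM in Control (log2 fold change 5.69, SE 0.49, edgeR adjusted p = 5.42e-05). Timp1, an inhibitor of matrix metalloproteinases, had 59.6, 58.9 and 144 CPM in Model and 1.05, 1.12 and 1.15 CPM in Control (6.30, SE 0.56, edgeR adjusted p = 6e-05). Mmp9, gelatinase B, had 39.1, 174 and 94.2 CPM in Model and 0.679, 7.62 and 12.1 CPM in Control (3.91, SE 0.84, edgeR adjusted p = 0.0215), and its call was lost without Model 2 (0.0647). Il6, an inflammatory cytokine, had 7.88, 18.7 and 25.6 CPM in Model and at most 0.17 CPM in Control (7.34, SE 1.36, edgeR adjusted p = 0.00904), and its call was lost without Model 3 (0.0543). With limma-voom Mmp9 (0.0758), Il6 (0.0917) and Spp1 (0.0725) were not called. Il1b missed the threshold when Control 2 or any Model library was left out (0.0641 to 0.0802), Spp1 without Model 1 (0.0575) or Model 3 (0.0604), and Cd44 without Control 1 (0.0667), Model 1 (0.0513) or Model 2 (0.0502). Without Control 1 and Model 2 together, Mmp9 (0.0534), Il6 (0.0544), Il1b (0.0848) and Cd44 (0.14) were not called. In edgeR with a required log2 fold change of 1, Mmp9 (0.0737), Il1b (0.104) and Cd44 (0.423) were not called.

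Ccnd1, the cyclin gene by which AP-1 acts on the cell cycle, had 43.4, 53.8 and 41.6 CPM in Model and 112, 66.2 and 107.5 CPM in Control (log2 fold change -1.04, SE 0.33, edgeR adjusted p = 0.118), with every Model library below every Control, and did not pass the test. Plaur, the urokinase receptor gene, was not analysed here. Some of the 9 genes that rose are also neutrophil or macrophage genes. Neutrophil marker sums differed between the groups as given above. Monocyte and macrophage marker sums overlapped, at 379 to 598 CPM in Model and 329 to 689 CPM in Control. The part of these cells in this count was not tested. The number that rose was 6 with any Model library left out or with a required log2 fold change of 1. It was 5 with Control 1 and Model 2 both left out. DESeq2, which called 711 genes higher and 675 lower in all, called 14 targets higher and 1 lower. An unadjusted p under 0.05 by edgeR was found for 14 higher and 1 lower, against 15.8% of all tested genes in either direction.

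The promoter windows of the targets often held TGACTCA, the TPA response element, in 7 of 23 windows of 19 matched genes, against 5.2% of all windows. The list was drawn up from known AP-1 targets, so this share describes the list. The 7 genes were Il6, Lmna, Mmp3, Mmp10, Mmp12, Mmp13 and Plaur. Examples are shown with the element, on the opposite strand here, in capitals, sense strand, GRCm38.p6, and were chosen for their element after the values were seen.
Mmp3, chr9:7445762-7445801, plus strand: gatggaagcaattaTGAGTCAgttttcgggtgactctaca
Mmp12, chr9:7347310-7347349, plus strand: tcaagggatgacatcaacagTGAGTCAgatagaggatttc
Il6, chr5:30012864-30012903, plus strand: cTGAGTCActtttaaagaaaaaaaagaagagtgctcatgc

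Of the 4 tested genes with this element, Il6 rose, as given above, and 3 did not pass. Mmp3, stromelysin 1, had 39.9, 160.5 and 104 CPM in Model and 0.793, 11.9 and 19.8 CPM in Control, a log2 fold change of 3.23 (SE 0.85) that missed the test (edgeR adjusted p = 0.0564). Mmp3 was called without Control 1 (0.0424), without Control 3 (0.0251), with DESeq2 (0.000681) and with no filter (5.11e-08). Mmp12, the elastase of macrophages, had 0.323, 37.9 and 0.355 CPM in Model and 5.04, 1.10 and 10.3 CPM in Control (1.23, SE 1.56, edgeR adjusted p = 0.792), so that only Model 2 was high. Lmna, lamin A, had a log2 fold change of 0.79 (edgeR adjusted p = 0.256).

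**Figure D4:**
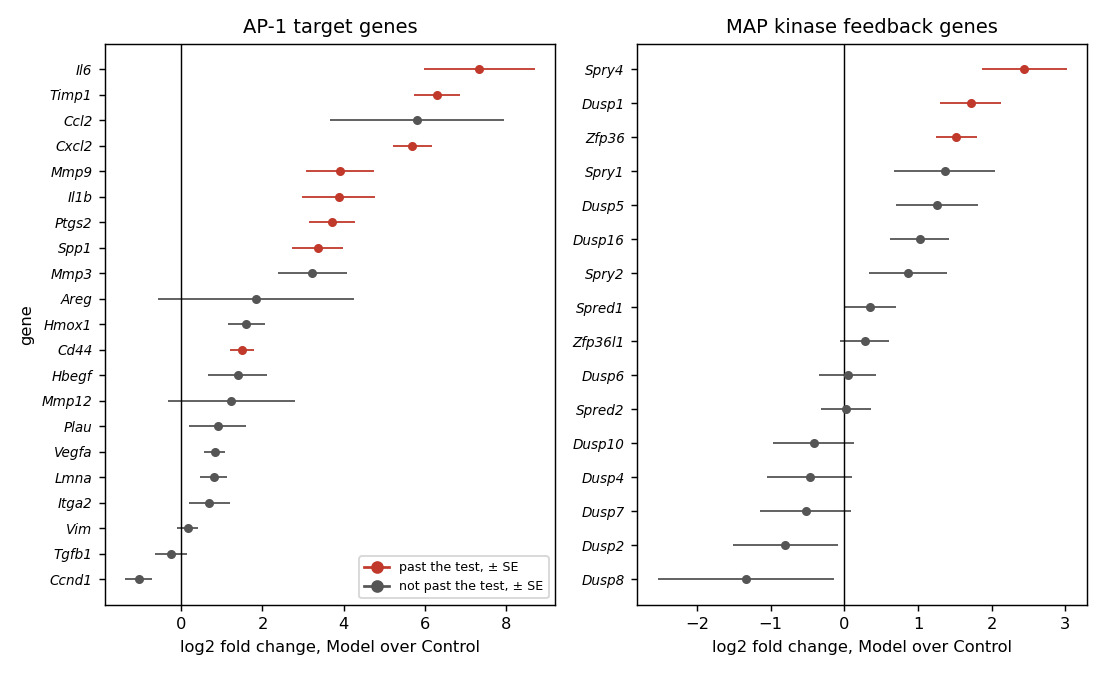
Log2 fold change of Model over Control, with bars of 1 SE, for tested AP-1 target genes (left panel, with 1 gene not shown) and 16 MAP kinase feedback genes (right panel), red where the gene passed the test. Of the genes past the test, Il6, Timp1 and Cxcl2 lie above 5, and most of the targets shown lie right of 0, with Tgfb1 and Ccnd1 left of it.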

How the data were processed

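Raw counts per gene were deposited by the authors in 1 table, per the file headers. Of that table, 6 further per-sample columns of normalized values were not used. Libraries depleted of ribosomal RNA were read on a NovaSeq 6000, per the labels' protocols. Cutadapt 1.9.3, STAR 2.5.1b, edgeR 3.16.5 and mm10 appear in the submitters' processing notes. Counting tool, annotation and strand setting were not given in the sources used here.

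Counts were tested in R 4.3.3 with edgeR 4.0.16 (filterByExpr with a minimum count of 10, TMM, quasi-likelihood test, two-sided, adjusted p threshold 0.05, 13907 genes). The SE was derived from the fold change and the F statistic. Levels per length used merged exons of GENCODE M21 (17555 genes matched), and coordinates are GRCm38, the assembly of mm10. No library duplicated another. The members, gene lists and tests were chosen with earlier results of these data known, so that the share of a list called is a description of that list. All 10 members were named, and of other lists up to 4 called genes a direction plus some named in any case. Alternatives were other scalings, filters and tools (DESeq2 1.42.0, limma 3.58.1), a replicate block, and leaving out libraries. Tested on simulated counts of 13661 genes, the Model against Control fit called 45.5% of genes changed 4-fold and 73.7% of those changed 16-fold. Counting floors cover counting error only. Some genes of the lists are counted but not reported here by name.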

Additional observations from a re-analysis of the deposited data

How the results depend on the processing

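Fosl2 was called in all 15 other settings and Fosl1 in 14 (5.56, adjusted p = 0.15, with limma-voom, which left 1 of the 10 genes higher), and no setting called an AP-1 gene lower. Leaving out each library in turn gave 2 to 3 AP-1 genes higher and 0 lower. The sign of Jund turned with upper-quartile scaling (-0.088), no filter (-0.018), a minimum count of 100 (-0.016), and without Control 1 or Control 2 (-0.17 each), Model 1 (-0.38) or Control 1 and Model 2 together (-0.039). Over single libraries left out Jund ranged up to 0.40. The sign of Atf3 turned with limma-voom (-0.40), the replicate block (-0.14), and without Model 2 (-0.17) or Model 3 (-0.16), with up to 0.75 without Model 1, and that of Batf without Control 1 (0.85), Model 1 (0.20) or Control 1 and Model 2 together (1.09), with down to -1.84 without Model 3. The cause was not tested.

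Over all genes, 377 were higher and 189 lower. The counts were 642 and 469 with no filter, 711 and 675 with DESeq2, 129 and 21 with a required log2 fold change of 1, and 222 and 63 without Control 1 and Model 2 together. Limma-voom gave 115 lower genes. Without 1 library, 221 (without Model 1) to 312 were higher and 92 (without Control 1) to 136 lower, with 96 lower without Model 1. With counts not divided by length, the Model and Control shares were 19.3% and 48.8% for Fos, 74.5% and 39.1% for Fosl2, 56.8% and 52.5% for Jun, and 12.7% and 22.0% for Jund, and the Control share of Fosb was 11.9%.

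The labels name no pairing of samples. Deviations from the group mean correlated with r = 0.147, 0.119 and 0.0037 between samples of the same number. Between samples of different numbers r was -0.159 to 0.0733. With the replicate block, 2 AP-1 genes, 379 higher and 196 lower genes were called in all, Dusp1 was not called (adjusted p = 0.0568) and Mmp3 was (0.00243). Among the 10 members, the SE was largest for Batf (1.24), followed by Fosl1 (1.003), which had 14 to 18 counts in the Control libraries.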
